A study of Mus musculus with 11 samples.

Results

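The 8 secreted defence and cytokine genes described here were measured in lung epithelium of E17.5 mouse embryos labelled as knockouts of Prdm3 and Prdm16 and of Control embryos. They are the chemokine gene Cxcl15, the alarmin gene Il33, Retnla of the resistin-like family, the complement C5 gene Hc, the lysozyme genes Lyz1 and Lyz2, and the iron-sequestering genes Lcn2 and Ltf. The members were chosen by gene symbol, with the differences between these same libraries already known, so their values are given as a description with no test. All 8 were found among the 24421 rows of the count table and all 8 were among the 13916 genes tested.

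Alveolar type 2 cells are the cuboidal cells of the distal lung that make surfactant, and they also take part in innate defence of the airspace. They secrete proteins that bind, lyse or starve microbes, complement components, and chemokines that draw in neutrophils. Most of these proteins are not theirs alone: neutrophils store lactoferrin and lipocalin 2 in their granules, macrophages express lysozyme and Retnla, and IL-33 is also held in the nuclei of endothelial and stromal cells.

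There were 5 libraries of the Prdm3/16 double knockout and 6 Control libraries. Cells positive for the epithelial surface protein EpCAM were held on magnetic beads from digested lungs, and poly(A) RNA was sequenced in bulk. In the knockout, floxed Prdm16 and floxed Prdm3 were recombined by ShhCre, a Cre driven from the Shh locus in lung epithelium. Per the labels, Cre-carrying sires with floxed Prdm3 on both alleles and Prdm16 floxed on a single allele were mated to dams with both genes floxed on both alleles, so embryos of both groups from this cross would share floxed Prdm3 alleles. The labels do not give the alleles or the Cre status of the Control embryos, and do not say whether libraries are separate animals, so errors here measure the spread between libraries, part of which may be technical. Counts over the whole of Mecom, the gene of Prdm3, were not lower: 339.7 ± 15.99 CPM in the knockout and 218 ± 9.97 CPM in Control. Prdm16 had 165 ± 12.2 CPM in the knockout and 201 ± 21.8 CPM in Control, with overlapping ranges. A count per gene includes exons outside the deleted part, so these values do not check the genotype, and knockout stands throughout for the libraries labelled so. Totals were 6065906 to 7869787 counts per library. In bulk RNA, fewer cells of a type and less RNA per cell cannot be told apart.

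Of the 20 type 2 cell markers, 19 fell in the knockout and 0 rose by edgeR's quasi-likelihood test, with a median log2 fold change of -1.69. The same test called 42.9% of all genes, 21.1% higher and 21.8% lower in the knockout, and the median over all genes was 0.0023. With scaling by library size alone, the median over all genes moved to 0.11 and 65.4% of the calls were higher in the knockout, against 49.2% with the scaling used here. Y-linked transcripts were high in knockout library 4 and in Control libraries 1, 3, 4 and 5, and low in the other 6 libraries, so sex is not balanced between the groups. Control libraries 5 and 6 had the lowest mean type 2 marker level in their group, 8.56 and 8.28 log2 CPM (CPM being counts scaled to a common library size), while Control libraries 1 to 4 had 8.74 to 8.97.

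Of the 8 members, 5 were lower in every knockout library than in every Control library: Retnla, Hc, Cxcl15, Il33 and Lcn2. Ltf was the reverse, higher in every knockout library, and Lyz1 and Lyz2 had ranges that overlapped. Ranges that did not overlap were found for 28.5% of all genes tested, 14.2% lower and 14.2% higher in the knockout; because the members were chosen on this contrast, nothing is read from their share. The 5 lower members had log2 fold changes below the type 2 marker median of -1.69, and the other 3 lay above it. Lcn2, at -1.81 (SE 0.22), was within 1 SE of that median, so its place below it is not resolved.

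**Figure D1:**
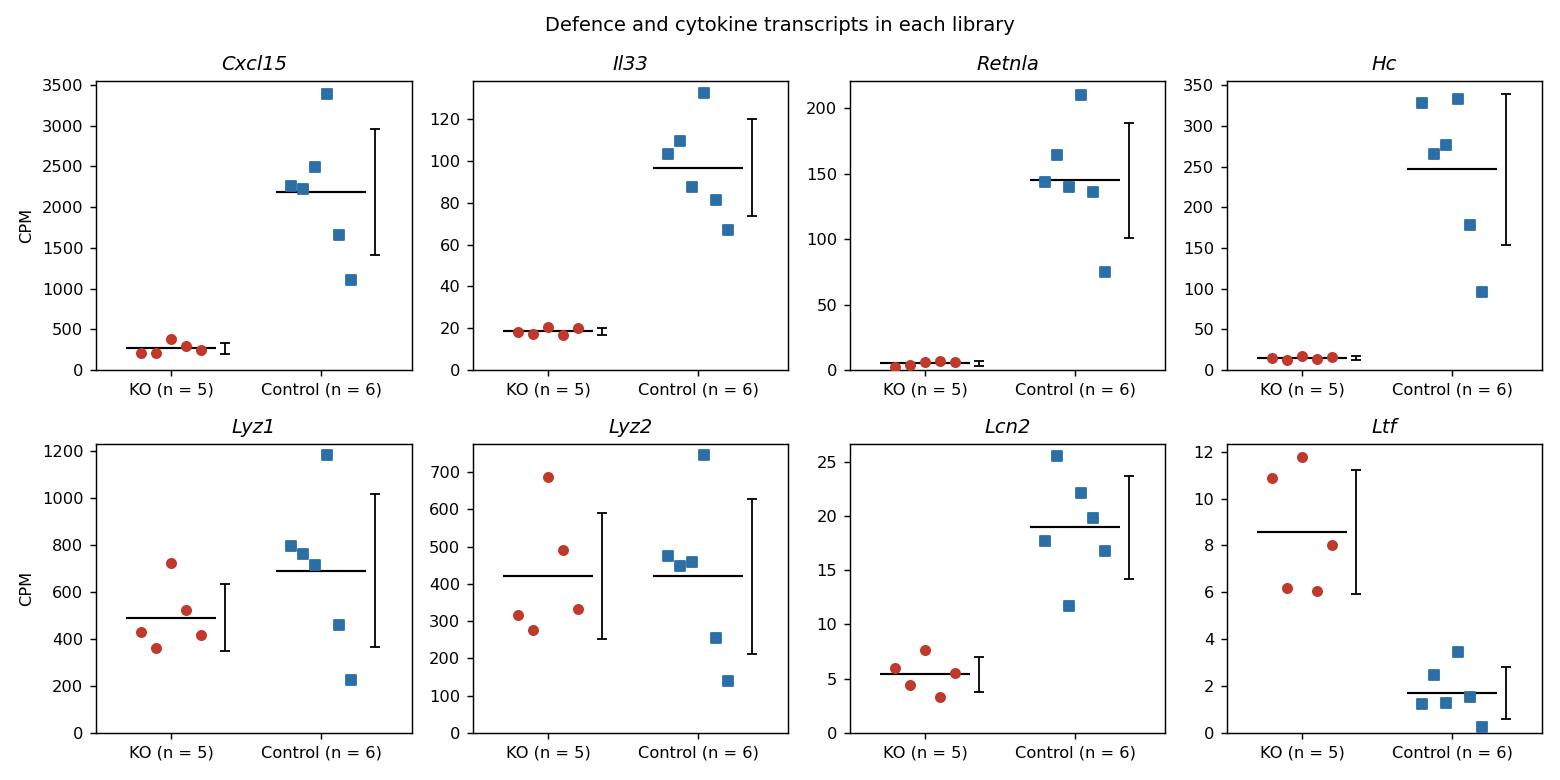
CPM (y axis, from 0, a separate scale for each gene) of the 8 members in 5 knockout (KO, circles) and 6 Control (squares) libraries; lines are means and the bars beside them are SDs. Cxcl15, Il33, Retnla, Hc and Lcn2 lie lower in every KO library, Ltf lies higher, and Lyz1 and Lyz2 overlap.

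**Figure D2:**
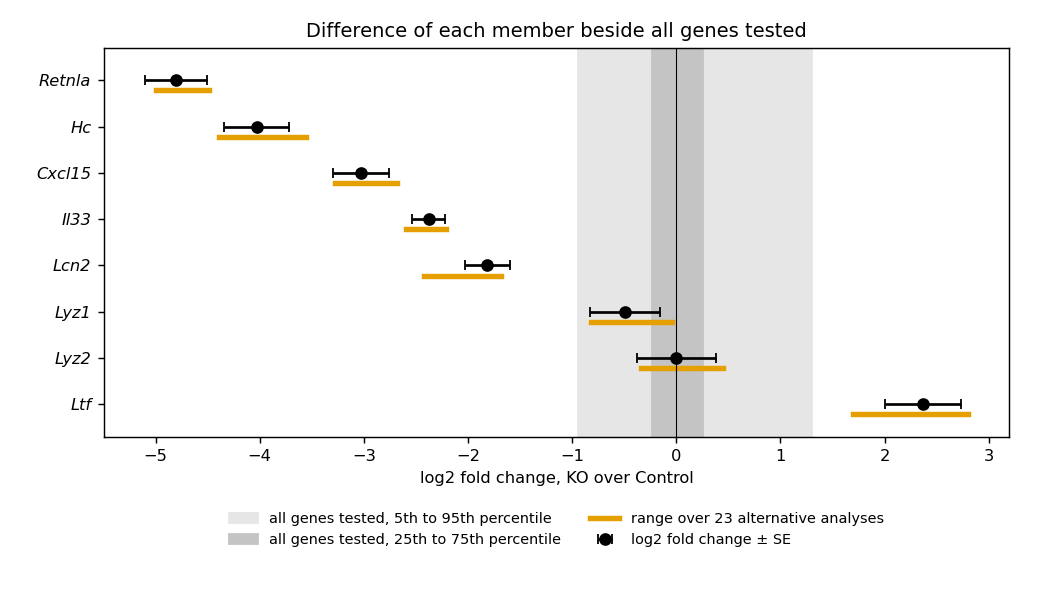
Log2 fold change of KO over Control (x axis) for each member, with its SE as a bar, the range over 23 alternative analyses in orange, and grey bands for the spread of all 13916 genes tested. Retnla is lowest at -4.80, Lyz2 is at 0.0017 and Ltf is highest at 2.37.

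Cxcl15, also called lungkine, encodes a chemokine of the CXC family that attracts neutrophils and is made by lung epithelium in the mouse. It lies on chromosome 5 from 90794534 to 90803067 (mm10, plus strand). Its level was 216, 206, 378, 293 and 249 CPM in knockout libraries 1 to 5, against 1112 CPM in the lowest, 2244 CPM at the median and 3387 CPM in the highest Control library. The groups were far apart: the highest knockout library, number 3, stayed well under the lowest Control library, number 6. The means were 268 ± 70.4 CPM in the knockout and 2189 ± 772 CPM in Control (SD, n = 5 and 6), a log2 fold change of -3.03 (SE 0.27), or 8.15-fold lower. This was the 40th lowest log2 fold change among the 13916 genes.

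Il33 encodes interleukin 33, a nuclear cytokine that is released from damaged barrier cells and acts on the receptor ST2, encoded by Il1rl1. It lies on chromosome 19 from 29925114 to 29960718 (plus strand). Il33 was counted at 18.4, 17.4, 20.5, 16.8 and 19.95 CPM in the knockout libraries, against 66.9 CPM in the lowest, 95.3 CPM at the median and 132 CPM in the highest Control library. The knockout libraries were close to each other, with an SD of 8.41% of their mean, against 23.97% in Control. Means were 18.6 ± 1.56 CPM in the knockout and 96.8 ± 23.2 CPM in Control, a log2 fold change of -2.38 (SE 0.16), 5.19-fold lower. The receptor gene Il1rl1 did not pass the filter on low counts in these epithelial cells, with 0.517 ± 0.378 CPM in the knockout and 0.502 ± 0.370 CPM in Control.

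Retnla encodes a small secreted protein, also known as FIZZ1 or RELM-alpha, first described in inflamed mouse lung. It lies on chromosome 16 from 48842551 to 48844461 (plus strand). In the knockout libraries it was counted at 2.52, 3.80, 6.14, 7.06 and 6.28 CPM, against 74.7 CPM in the lowest, 142 CPM at the median and 210.5 CPM in the highest Control library. Every Control library was thus above 70 CPM and every knockout library was below 8 CPM. Means were 5.16 ± 1.92 CPM in the knockout and 145 ± 44.1 CPM in Control. The log2 fold change was -4.80 (SE 0.30), 27.9-fold lower and the 4th lowest of the 13916 genes. The relatives Retn and Retnlb were near 0 in both groups, at 0 and 0.0265 CPM in the knockout and 0.0288 and 0.0690 CPM in Control. Retnlg, a relative expressed in neutrophils, averaged 1.44 ± 0.267 CPM in the knockout and 0.121 ± 0.137 CPM in Control and did not pass the filter on low counts.

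Hc encodes complement C5, the component cleaved to the chemoattractant C5a and to C5b, which starts the membrane attack complex. It lies on chromosome 2 from 34983331 to 35061438 (minus strand). The knockout libraries had 15.4, 12.7, 17.4, 13.4 and 16.5 CPM, against 96.5 CPM in the lowest, 271 CPM at the median and 334 CPM in the highest Control library. All 5 knockout values lay within a narrow band, while Control libraries 5 and 6 were clearly under the other 4. Means were 15.1 ± 2.00 CPM in the knockout and 246 ± 92.3 CPM in Control, a log2 fold change of -4.03 (SE 0.31), 16.3-fold lower and the 13th lowest of all genes tested. Without Control libraries 5 and 6, the log2 fold change was -4.32 for Hc, -3.27 for Cxcl15, -4.99 for Retnla and -2.54 for Il33.

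Lyz1 and Lyz2 encode lysozymes, enzymes that cut the peptidoglycan of bacterial cell walls. Lyz2 is the form of macrophages and type 2 cells, and Lyz1 is best known from Paneth cells of the mouse gut. They are neighbours on the minus strand of chromosome 10, Lyz2 from 117277331 to 117282321 and Lyz1 from 117287797 to 117292868. Their transcripts were 95.96% identical over 1262 aligned bases, and 16.1% of the 50-base windows of Lyz1 and 15.4% of those of Lyz2 occur unchanged in the other. The handling of reads that fit both is not given in the sources used here, so the split between the pair is uncertain while their sum is less so.

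The stretches upstream of both lysozyme genes are shown because this pair did not follow the other members, with those of Cxcl15 and Retnla as members that were far lower. Sequences are RefSeq promoters of build GRCm38.p6, 5′ to 3′, cut where either RefSeq or GENCODE places the start of transcription. Capitals mark matches on either strand to CAAGTG or CTCAAG, cores of motifs known for NKX2-1, or to TTGCNNAA, a core of C/EBP motifs.
Lyz1, chr10:117292869-117293118, minus strand: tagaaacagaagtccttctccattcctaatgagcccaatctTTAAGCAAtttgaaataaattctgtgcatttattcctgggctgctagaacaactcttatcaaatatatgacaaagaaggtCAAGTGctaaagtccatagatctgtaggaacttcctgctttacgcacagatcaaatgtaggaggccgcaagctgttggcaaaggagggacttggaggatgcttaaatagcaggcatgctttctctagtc
Lyz2, chr10:117282322-117282522, minus strand: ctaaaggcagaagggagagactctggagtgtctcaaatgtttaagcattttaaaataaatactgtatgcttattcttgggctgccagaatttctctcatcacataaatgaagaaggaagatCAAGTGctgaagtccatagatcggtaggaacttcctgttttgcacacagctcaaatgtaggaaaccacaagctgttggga
Cxcl15, chr5:90794284-90794533, plus strand: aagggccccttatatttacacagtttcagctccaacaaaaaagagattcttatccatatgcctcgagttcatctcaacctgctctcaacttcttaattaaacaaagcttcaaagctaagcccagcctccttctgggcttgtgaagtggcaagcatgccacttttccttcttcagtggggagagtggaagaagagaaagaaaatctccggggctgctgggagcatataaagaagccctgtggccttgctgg
Retnla, chr16:48842359-48842550, plus strand: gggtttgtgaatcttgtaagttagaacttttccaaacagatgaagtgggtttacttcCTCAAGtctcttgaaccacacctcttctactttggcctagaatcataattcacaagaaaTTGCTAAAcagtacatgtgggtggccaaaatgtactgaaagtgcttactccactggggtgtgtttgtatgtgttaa
Over the 250 bases before the RefSeq start, Lyz1 and Lyz2 were 80.6% identical, and both hold CAAGTG with its first base 129 bases before the start. CAAGTG is found in 11.6% of the 32851 mouse promoter windows of that length, CTCAAG in 13.3% and TTGCNNAA in 9.56%. The Cxcl15 window holds none of these letters. Retnla holds CTCAAG and TTGCNNAA, and a match describes letters, not a bound site. Among the members not shown, TTGCNNAA was found before the RefSeq starts of Lcn2 and Ltf and before a second start of Il33. Hc held none of these motifs. Whether matches go with the direction of a member was not tested.

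Lyz1 was counted at 429, 363, 722, 523 and 416 CPM in the knockout libraries, against 227 CPM in the lowest, 739 CPM at the median and 1183 CPM in the highest Control library. Control libraries 5 and 6 lay within and below the knockout range, and Control libraries 1, 2 and 4 lay above it. Means were 491 ± 142 CPM in the knockout and 691 ± 325 CPM in Control, a log2 fold change of -0.49 (SE 0.34). Lyz2 was counted at 317, 276, 686, 490.1 and 332 CPM in the knockout libraries, against 140.3 CPM in the lowest, 453 CPM at the median and 746 CPM in the highest Control library. Its means of 420.3 ± 169 CPM in the knockout and 420.3 ± 208 CPM in Control differed by far less than the spread between libraries, with a log2 fold change of 0.0017 (SE 0.37). The sign of Lyz2 turned on a few libraries, while Lyz1 was negative in all 23 alternatives and changed only in size. Without Control libraries 5 and 6 the log2 fold changes were -0.82 for Lyz1 and -0.34 for Lyz2. Among low-Y libraries alone they were -0.041 and 0.45, and among high-Y libraries, where the knockout has 1 library, -0.60 and 0.016.

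The ratio of Lyz1 to Lyz2 separated the groups more cleanly than either level. It was 1.36, 1.31, 1.05, 1.07 and 1.25 in knockout libraries 1 to 5, against 1.57 in the lowest and 1.81 in the highest of the 6 Control libraries. The mean ratio was 1.21 ± 0.14 in the knockout and 1.66 ± 0.091 in Control, so no knockout library reached the Control range. Summed, the 2 genes reached 911 ± 310.2 CPM in the knockout and 1111 ± 533 CPM in Control, with overlapping ranges.

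Lyz2 is also a macrophage gene, so macrophage and monocyte markers were read beside it. Of 20 markers 14 were tested, 6 rose and 0 fell, against 21.1% higher and 21.8% lower over all genes tested. The summed level of the 20 markers was 103 to 435 CPM in the knockout and 39.0 to 149.6 CPM in Control. Marco, which marks adult alveolar macrophages, had no count in any knockout library and was near 0 in Control. The highest sum, 435 CPM, was in knockout library 2, where Mrc1 was 36.1 CPM and Lyz2 was at its lowest among the knockouts. Lyz2 was highest in knockout library 3 and Control library 4, where the macrophage sum was 189.9 and 87.6 CPM. The count of 6 fell to 3 without knockout library 2, without Control library 4 or without Control library 6, fell to 1 without Control libraries 5 and 6, and reached 10 without knockout library 5. It was 3 among low-Y libraries and 0 among high-Y libraries. The part of these cells in the Lyz1 and Lyz2 values was not tested.

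**Figure D3:**
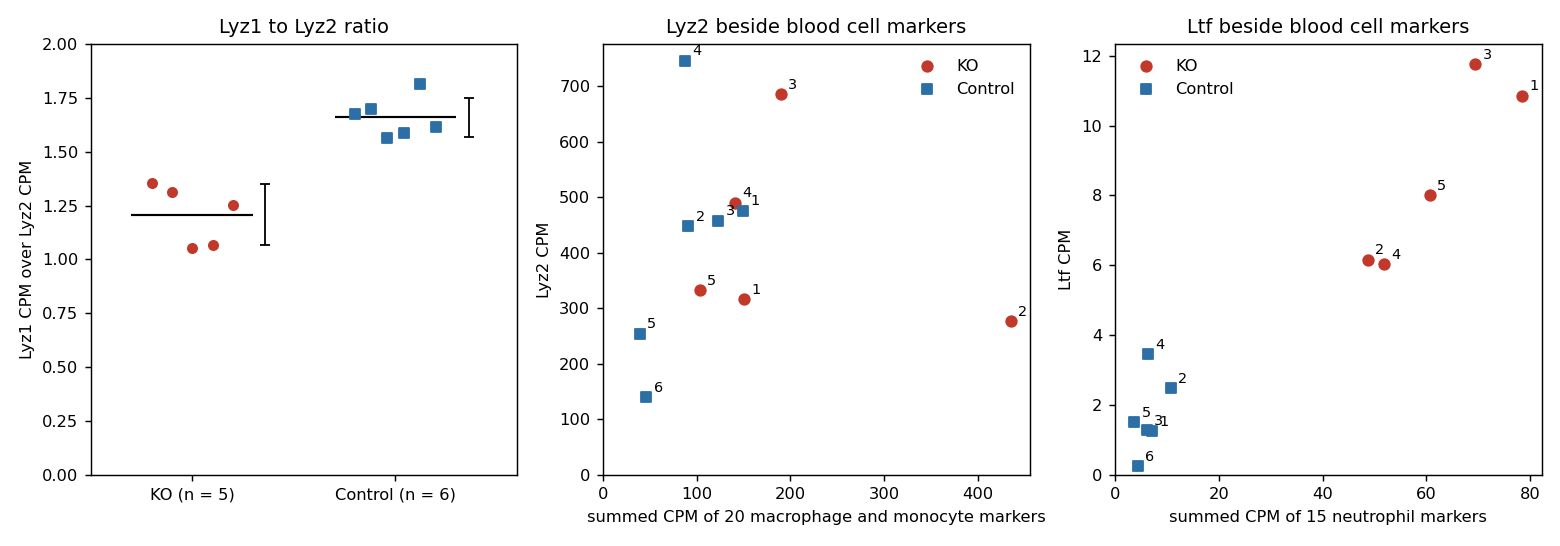
Left, ratio of Lyz1 to Lyz2 CPM in 5 KO and 6 Control libraries, with the mean as a line and the SD as a bar. Middle and right, Lyz2 against the summed CPM of 20 macrophage and monocyte markers, and Ltf against that of 15 neutrophil markers, each point 1 library with its number. KO library 2 has the highest macrophage sum with the lowest KO value of Lyz2, and the KO libraries lie above the Control libraries in both Ltf and neutrophil markers.

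Lcn2 encodes lipocalin 2, which binds bacterial siderophores and so withholds iron. It lies on chromosome 2 from 32384633 to 32388252 (minus strand). Lcn2 had levels of 5.96, 4.46, 7.67, 3.34 and 5.54 CPM in the knockout libraries, against 11.7 CPM in the lowest, 18.8 CPM at the median and 25.5 CPM in the highest Control library. The groups did not overlap, and Control library 3 came nearest to the knockout. Means were 5.39 ± 1.63 CPM in the knockout and 18.9 ± 4.77 CPM in Control, a log2 fold change of -1.81 (SE 0.22), 3.51-fold lower. Its reported receptor Slc22a17 rose, to 66.6 ± 7.49 CPM in the knockout against 45.7 ± 5.94 CPM in Control (log2 fold change 0.54; edgeR, adjusted p = 0.00032).

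Ltf encodes lactoferrin, a secreted iron-binding protein of mucosal fluids and of neutrophil granules. It lies on chromosome 9 from 111019271 to 111042767 (plus strand). Ltf had levels of 10.9, 6.16, 11.8, 6.04 and 8.01 CPM in the knockout libraries, against 0.247 CPM in the lowest, 1.39 CPM at the median and 3.46 CPM in the highest Control library. The order was opposite to that of Lcn2, with every knockout library above every Control library. Counts were low, 333 over the knockout and 66 over the Control libraries, and Ltf passed the filter on low counts through its knockout values. Means were 8.56 ± 2.64 CPM in the knockout and 1.70 ± 1.12 CPM in Control, a log2 fold change of 2.37 (SE 0.37), 5.17-fold higher.

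Neutrophil markers were, like Ltf, higher in the knockout. Of 16 listed markers 15 had a row and 6 passed the filter on low counts; 5 were called higher in the knockout and 0 lower. These 5 averaged under 1.30 CPM in Control and so passed the filter through the knockout, so they had to differ and their calls support nothing; their values are given with no test. The summed level of all 15 was 48.8 to 78.5 CPM in the knockout and 3.71 to 10.8 CPM in Control. The granule protein gene Ngp averaged 20.8 ± 4.65 CPM in the knockout and 0.744 ± 0.635 CPM in Control. S100a9, which encodes a subunit of the zinc-binding antimicrobial protein calprotectin, averaged 19.2 ± 4.22 CPM in the knockout and 1.29 ± 0.959 CPM in Control. Knockout libraries 1 and 3 had the highest neutrophil sums, 78.5 and 69.4 CPM, and also the highest Ltf. In Control the orders differed: the neutrophil sum was highest in library 2, at 10.8 CPM, while Ltf was highest in library 4, where the sum was 6.40 CPM. Elane, a marker of neutrophil precursors, had no count in any of the 11 libraries, where 3 counts would be 0.369 to 0.532 CPM. The neutrophil receptor gene Cxcr2 averaged 2.01 ± 0.548 CPM in the knockout and 0.203 ± 0.172 CPM in Control. The part of neutrophils in the Ltf and Lcn2 values was not tested.

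Levels can be compared between members only per length, so CPM was divided by the exon length of each gene in kilobases. This length joins the exons of all annotated transcripts of a gene. There was 1 transcript each for Cxcl15, Retnla, Lyz1 and Lyz2, 5 each for Il33 and Hc, 6 for Lcn2 and 12 for Ltf. Where the expressed transcript is shorter than the joined length, the level per kb is too low. The places of Il33, Hc, Lcn2 and Ltf in the order are therefore uncertain. In the knockout the order was Lyz1, Lyz2, Cxcl15, Retnla, Il33, Ltf, Hc and Lcn2. Lyz1 led with 388 ± 112 CPM per kb, Cxcl15 had 126 ± 33.1 CPM per kb and Lcn2 had 2.06 ± 0.621 CPM per kb in the knockout. Ranges over knockout libraries overlapped between Lyz1 and Lyz2, between Retnla and Il33, and between neighbours among Ltf, Hc and Lcn2. In Control the order was Cxcl15, Lyz1, Lyz2, Retnla, Hc, Il33, Lcn2 and Ltf. Cxcl15 led there with 1029 ± 363 CPM per kb, Lyz1 had 547 ± 257 CPM per kb and Ltf, last, had 0.494 ± 0.324 CPM per kb in Control. In Control only the steps below Retnla, below Il33 and below Lcn2 had ranges that did not overlap.

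Some libraries were high or low for most members. Knockout library 3 had the highest value of 7 of the 8 members, the exception being Retnla, highest in knockout library 4. Library 3 also had the highest mean log2 CPM of the type 2 markers among knockout libraries, 7.07 against 6.67 to 6.92 in the others. The lowest knockout values were spread over library 2 (4 members), library 4 (3 members) and library 1 (1 member). Library 4 was lowest for Il33, Lcn2 and Ltf and highest for Retnla, and its type 2 marker mean of 6.92 log2 CPM was second among the knockouts. Control library 4 had the highest value of 7 of the 8 members and the highest type 2 marker mean, 8.97 log2 CPM. Control library 6 had the lowest value of 7 members and the lowest type 2 marker mean, 8.28 log2 CPM. The ranking by type 2 markers was not shared by Lcn2, highest in Control library 2 and lowest in Control library 3. Ltf, though higher in the knockout, was likewise highest in knockout library 3 and Control library 4 and lowest in Control library 6.

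The split by Y-linked transcripts kept the direction of the 6 members whose ranges did not overlap. Among the 6 low-Y libraries, 4 of them knockout, the log2 fold changes were -2.68 for Cxcl15, -4.67 for Retnla, -2.21 for Il33, -3.55 for Hc, -1.84 for Lcn2 and 2.80 for Ltf. Among the 5 high-Y libraries, 1 of them knockout, they were -3.07, -4.49, -2.59, -4.39, -2.43 and 1.69 in the same order.

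For each member, the 3 genes with the most similar profile over the 11 libraries were found by the root mean square (RMS) difference of centred log2 CPM, among 9708 genes. Cxcl15 was most like Adora2b (RMS 0.15), an adenosine receptor gene, and Lamp3 (0.22), a lamellar body gene. Il33 was most like Napsa (0.16), which encodes the aspartic protease napsin A. Hc and Retnla were both nearest to the fatty acid desaturase gene Scd1, with RMS 0.22 and 0.48. Lyz2 was nearest to Lyz1 (0.26). The nearest to Lyz1 was Sntn (0.23), a gene of cilia, ahead of Lyz2 and of Lpl (0.26), which encodes lipoprotein lipase. Lcn2 was nearest to the protease inhibitor gene Serpine2 (0.28). Ltf had no close match: the nearest was the uroplakin gene Upk1b at 0.58, which is also on the list of mesothelial markers. These likenesses share the same libraries and include the difference between genotypes.

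Other secreted antimicrobial genes moved both ways. Of 44 listed, 23 were tested, 11 fell, 8 rose and 4 did not pass, with a median log2 fold change of -0.21. Over all genes tested, 21.1% were higher and 21.8% lower in the knockout, and no set test was run on any list. Among those that rose, Bpifa1, Ngp, Duox1 and Pigr reached the filter on low counts through the knockout, and Spp1 did so mostly through knockout libraries. Slpi, Nos2 and Chia1, which fell, reached it through Control, so the calls of these genes support nothing. Sftpd and Sftpa1 stand in this list and in that of type 2 markers. Chil1, a chitinase-like protein gene, fell to 23.8 ± 4.92 CPM in the knockout against 353 ± 142 CPM in Control (log2 fold change -3.89; edgeR, adjusted p = 3.81e-07). The collectin gene Sftpd fell to 20.9 ± 2.69 CPM in the knockout against 211 ± 74.1 CPM in Control, and the haptoglobin gene Hp to 177 ± 13.03 CPM against 611 ± 157 CPM in Control. Reg3g, which encodes a bactericidal lectin, fell to 3.37 ± 2.38 CPM in the knockout against 24.6 ± 17.8 CPM in Control, with overlapping ranges (edgeR, adjusted p = 0.00983); the call was lost with limma-voom. Higher in the knockout were the acute-phase gene Saa3, at 39.1 ± 8.62 CPM against 4.80 ± 2.22 CPM in Control, and Bpifa1, an airway surface protein gene, at 10.98 ± 5.12 CPM against 0.270 ± 0.296 CPM in Control. The airway genes Scgb3a2 and Scgb3a1 did not pass, with log2 fold changes of -0.17 and 1.23. Ngp, also a neutrophil marker, is among the 8 that rose.

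Complement genes other than Hc also went both ways. Of 38 listed, 24 were tested, 11 rose, 5 fell and 8 did not pass, with a median log2 fold change of 0.45. The shares over all genes tested were 21.1% higher and 21.8% lower. C3, the central component, fell with Hc, to 7.36 ± 2.89 CPM in the knockout against 32.7 ± 9.20 CPM in Control (log2 fold change -2.15; edgeR, adjusted p = 1.49e-05). The chaperone and complement inhibitor Clu fell to 30.6 ± 2.24 CPM in the knockout against 133 ± 46.4 CPM in Control, and the lectin gene Mbl1 fell by 1.90 on the log2 scale. C2, a part of the C3 convertase, averaged 2.94 ± 0.780 CPM in the knockout and 1.02 ± 0.332 CPM in Control. C2 and C1s1, which also rose, reached the filter on low counts through the knockout, so their calls support nothing. Of the 11 that rose, only C2 had ranges that did not overlap. Those with overlapping ranges included C1qa, C1qb, C1qc, C3ar1 and C5ar1. The last 3 were highest in knockout library 2, at 56.0, 18.8 and 9.57 CPM. The call of C1qa was lost in 10 of 23 alternatives, and that of C1qb without Control libraries 5 and 6 and among high-Y libraries. C1qa, C1qb and C1qc are also on the macrophage list, whose summed level is given above. The count of 11 fell to 6 without knockout library 3 and to 4 without Control libraries 5 and 6, while the count of 5 that fell was 4 or 5 without any single library. The cell surface regulators Cr1l and Cd59a did not pass, with log2 fold changes of 0.076 and 0.39.

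Among 61 other chemokines and cytokines 30 were tested, 8 rose, 8 fell and 14 did not pass, with a median log2 fold change of 0.24. The shares over all genes tested were 21.1% higher and 21.8% lower. Il34, a ligand of the macrophage growth factor receptor, fell to 8.90 ± 0.991 CPM in the knockout against 28.3 ± 3.57 CPM in Control (log2 fold change -1.66; edgeR, adjusted p = 1.53e-08). Csf2, which encodes GM-CSF, needed for alveolar macrophages, averaged 0.927 ± 0.498 CPM in the knockout and 7.78 ± 2.07 CPM in Control. Cxcl1, which like Cxcl15 attracts neutrophils, fell to 15.98 ± 5.12 CPM in the knockout against 32.2 ± 10.9 CPM in Control, with overlapping ranges. Il18, a cytokine activated by inflammasomes, averaged 3.78 ± 0.345 CPM in the knockout and 0.477 ± 0.403 CPM in Control. Csf2, Il6 and Il7, which fell, reached the filter on low counts through Control. Il18, Il1a, Il1rn and Ccl9, which rose, reached it through the knockout, so the calls of these genes support nothing. Csf1 rose to 37.8 ± 14.1 CPM in the knockout against 11.1 ± 8.88 CPM in Control. The 8 that rose became 5 without knockout library 2. Tnfsf15 and Cx3cl1 did not pass, with log2 fold changes of 1.01 and 0.22.

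**Figure D4:**
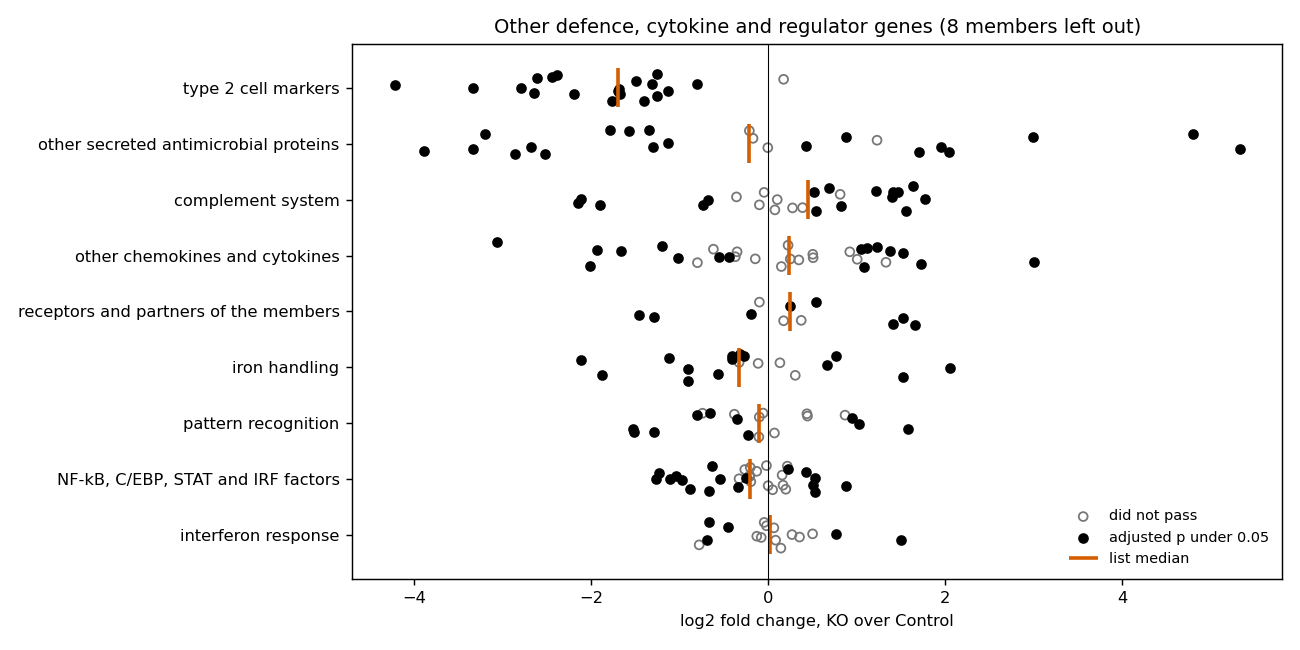
Log2 fold change of KO over Control (x axis) of the tested genes in 9 lists, the 8 members left out. Filled points passed an adjusted p of 0.05 by edgeR, open points did not, and the orange line is the list median, which is -1.69 for type 2 markers, 0.45 for complement and 0.022 for interferon response.

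Receptors and signalling partners of the members were tested in 11 of 17 cases, of which 5 rose and 3 fell. For this list and the next, the shares over all genes tested were 21.1% higher and 21.8% lower. Mmp9, which rose, is also a neutrophil marker that reached the filter on low counts through the knockout, so its call supports nothing. Among the other called genes, C5ar1 is also on the complement list, Slc40a1 on that of iron handling and Myd88 on that of pattern recognition. Myd88, the adaptor used by the IL-33 receptor and by Toll-like receptors, fell to 53.5 ± 1.47 CPM in the knockout against 130.4 ± 9.12 CPM in Control (log2 fold change -1.29; edgeR, adjusted p = 4.33e-10). The co-receptor gene Il1rap did not pass, with a log2 fold change of -0.099. In the pattern recognition list 19 of 24 were tested, 7 fell and 3 rose, with a median of -0.11. Cd14, which hands lipopolysaccharide to TLR4, fell to 48.5 ± 16.4 CPM in the knockout against 139 ± 27.2 CPM in Control, while the flagellin receptor gene Tlr5 rose to 37.1 ± 2.06 CPM against 19.2 ± 3.30 CPM in Control.

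Iron handling, the process on which Lcn2 and Ltf act, was tested in 18 of 20 genes. Of these 10 fell and 4 rose, with a median log2 fold change of -0.32, against 21.8% lower and 21.1% higher over all genes tested. Slc11a1, which rose, reached the filter on low counts through the knockout, so its call supports nothing. The ferric reductase gene Cybrd1 fell to 53.6 ± 5.33 CPM in the knockout against 233 ± 26.6 CPM in Control (log2 fold change -2.12; edgeR, adjusted p = 1.48e-10). Trf, which encodes transferrin, a relative of lactoferrin, fell to 61.03 ± 14.2 CPM in the knockout against 225 ± 68.7 CPM in Control. The iron exporter gene Slc40a1 rose to 40.3 ± 6.08 CPM in the knockout against 14.02 ± 1.75 CPM in Control, and the transferrin receptor gene Tfrc did not pass, with a log2 fold change of -0.11.

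Transcription factors and feedback genes of inflammatory signalling were all tested, 31 of 31. Of these 11 fell, 6 rose and 14 did not pass, with a median log2 fold change of -0.20. Over all genes tested, 21.8% were lower and 21.1% higher. The cytokine signalling inhibitor Socs3 fell to 249 ± 10.4 CPM in the knockout against 538 ± 20.3 CPM in Control (log2 fold change -1.11; edgeR, adjusted p = 1.14e-09). Cebpd fell to 90.01 ± 11.7 CPM in the knockout against 216 ± 31.9 CPM in Control, Cebpa to 354 ± 42.5 CPM against 650.1 ± 83.5 CPM, and Stat3 to 167 ± 10.6 CPM against 344 ± 77.2 CPM in Control. The NF-kB pathway genes Nfkbiz and Nfkbia did not pass, with log2 fold changes of 0.22 and 0.17. With library-size scaling alone, 10 in place of 6 rose. Of 23 interferon response genes, 16 were tested, 2 rose and 3 fell, and the median was 0.022. Among the genes named in these lists as past the threshold, the calls of Slc22a17, Reg3g, Csf1 and C1qa were lost among the low-Y libraries alone, and those of C2, Tlr5, C1qa and C1qb among the high-Y libraries.

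Markers of other cell types were read beside the members, since Il33 and Ltf are expressed in several. Over all genes tested, 21.1% were higher and 21.8% lower in the knockout. Of 8 mesothelial markers 7 rose, and the sum of the 8 was 1651 to 1937 CPM in the knockout and 1135 to 1615 CPM in Control. Most of that sum was Krt19, the marker that did not pass, at 1274 ± 63.3 CPM in the knockout and 1130 ± 145 CPM in Control. Of 15 mesenchymal markers tested 8 rose and 1 fell, with sums of 942 to 1694 CPM in the knockout and 952 to 1484 CPM in Control. Of 10 endothelial markers tested 6 rose and 1 fell, with sums of 131 to 164 CPM in the knockout and 103 to 170 CPM in Control. The count of 6 was 3 without knockout library 4. Each of these 2 sums holds a gene that fell. Col6a1, the mesenchymal marker that fell, averaged 203 ± 70.4 CPM in the knockout and 555 ± 213 CPM in Control. Kdr, the endothelial marker that fell, averaged 24.6 ± 2.09 CPM in the knockout and 58.0 ± 16.0 CPM in Control. Of 14 airway secretory and ciliated markers, 4 rose and 1 fell. The part of these cells in the member values was not tested.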

How the data were processed

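The authors deposited 1 table of whole-number counts per gene symbol for 11 poly(A) RNA libraries of EpCAM-selected E17.5 lung epithelium. The submitters' processing notes name the build mm10 and, without their roles, HTSeq 2.0, Bowtie2 2.4.2, Picard 2.18.22, Trim Galore 0.4.2 and SAMtools 1.10.0. How strand, duplicates and multi-mapped reads were treated, and with which annotation, is not given in the sources used here, so reads of overlapping antisense genes may be mixed. Of 24421 rows, 27 had a date in place of a symbol and 2 symbols were duplicated; all stayed in the totals.

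Genes were filtered with filterByExpr, scaled with TMM factors and tested with edgeR 4.0.16 (R 4.3.3; quasi-likelihood F test, robust, two-sided, Benjamini-Hochberg over 13916 genes, threshold 0.05). The SE is the log2 coefficient over the square root of F. CPM uses TMM-scaled library sizes. Coordinates and exon lengths are from GENCODE M21, on mm10. The steps were tested on simulated counts with 200 changed genes, some higher and some lower. In the data 42.9% of genes were called, so the simulation does not test the scaling under such wide change.

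The members and gene lists were chosen with earlier results of these data known. From each list, the rule allowed naming the 4 called genes with the smallest adjusted p, plus the 2 highest in CPM among those not called, and not all are printed; for each member the 3 genes most alike, with a mean of at least 10 CPM, could be named. Reg3g, Saa3, Cxcl1, Csf1, Trf, Cebpa, Stat3, C1qa, Sftpa1 and the receptor and family genes given only by level were chosen after their values were seen. So were C1qc, C3ar1, C5ar1 and the genes named only for how they reached the filter on low counts. Not all of these were followed over the alternatives. Alternatives were other scalings and filters, DESeq2 1.42.0, limma-voom 3.58.1, the replicate number as a block, moderation without the robust option, and each library left out. Leaving out Control libraries 5 and 6, and the split by Y-linked transcripts at 3 log2 CPM, were chosen after seeing the data. The floor of 3 counts covers counting error only.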

Additional observations from a re-analysis of the deposited data

Results flagged for a closer look

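The values of the members and of the other named genes were checked for a library far from the rest of its group, in 268 gene and group pairs, of which 22 stood out. Chance alone marks about 1 in 20 such checks. None of the 8 members was marked in either group.

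Knockout library 2 stood apart above the other knockouts for the macrophage genes Mrc1 (36.1 CPM, next 13.2), F13a1 (63.4, next 24.5), Cx3cr1 (58.1, next 22.6) and C1qa (66.5, next 25.2). It was also highest for Cd14 (77.0 CPM), Csf1 (62.6 CPM) and Ifi44 (9.84 CPM), and lowest for Gstt1 (3.54 CPM). Knockout library 3 stood apart for the airway genes Scgb3a2 (204 CPM, next 163) and Scgb3a1 (138 CPM, next 76.4), and for Cd79b (2.94 CPM) and Col6a1 (324 CPM). Knockout library 1 was low for Ros1 (0.794 CPM), and knockout library 4 was the one knockout library high for the Y-linked genes Ddx3y (116 CPM) and Kdm5d (42.8 CPM).

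Control library 4 was high for Hp (926 CPM, next 574) and Foxj1 (1106 CPM), and low for Tlr5 (12.8 CPM) and Gbp2 (1.56 CPM). Control library 6 was low for C2 (0.370 CPM) and high for Cxcl1 (52.9 CPM, next 33.0). Control library 2 was low for Postn (0.552 CPM).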

How the results depend on the processing

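Under 23 alternatives, 183 of 184 member log2 fold changes moved by less than 1 SD between libraries; Lcn2 moved to -2.43 among high-Y libraries. Leaving out each library in turn gave -3.18 to -2.86 for Cxcl15, -4.94 to -4.63 for Retnla, -2.46 to -2.27 for Il33, -0.68 to -0.27 for Lyz1, -0.25 to 0.24 for Lyz2, -4.19 to -3.92 for Hc, -1.97 to -1.68 for Lcn2 and 2.11 to 2.68 for Ltf. Over all genes it gave 2643 to 3120 higher and 2618 to 3269 lower in the knockout. Lyz2 had no stable sign. The list medians kept their sign under DESeq2, upper-quartile and library-size scaling, but with library size only they moved to -0.0043 for pattern recognition (-0.11 with TMM), -0.11 for antimicrobial genes (-0.21), -0.098 for the transcription factors (-0.20), -0.21 for iron handling (-0.32) and 0.12 for interferon response (0.022). Of 89 named genes past the threshold, 61 stayed past it in every alternative.

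Counts of higher genes moved to 10 for the inflammatory transcription factors with library size only, to 6 for interferon response with no filter on low counts, and to 4 for complement without Control libraries 5 and 6. Leaving out single libraries gave 6 to 11 higher complement genes and 5 to 10 higher chemokines and cytokines. The 6 low-Y libraries alone gave 1932 higher and 1821 lower genes, with complement at 3 higher and 3 lower, chemokines and cytokines at 4 higher, receptors and partners at 1 lower, transcription factors at 3 higher and interferon response at 1 lower. Fewer samples enter this fit. The 5 high-Y libraries, with 1 knockout library assumed to vary like the others, gave 869 higher and 933 lower genes. There, antimicrobial genes had 4 higher, complement 0 higher, chemokines and cytokines 2 higher and 5 lower, receptors 3 higher, iron handling 1 higher and 4 lower, pattern recognition 0 higher, transcription factors 1 higher and 7 lower, and interferon response 1 higher and 0 lower. The leukocyte gene Ptprc reversed there, at -0.018 against 1.31 over all libraries.

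Residuals of same-numbered libraries correlated at -0.067, 0.098, -0.052, 0.0060 and 0.25. Libraries with different numbers were not compared in this way, so these values do not settle whether the replicate numbers pair the samples. With the replicate number as a block, without Control library 6, the knockout had 3065 genes called higher and 3105 called lower. Low counts limit Ltf most, with 66 counts over the Control libraries. Lcn2 and Retnla followed, with 210 and 202 counts over the knockout libraries.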
